A study of Arabidopsis thaliana with 18 samples.

Results

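The windows described here are 100-bp stretches of the second chromosome 3 interval (TAIR10, chr3:22235451-23207500) in which wild-type Arabidopsis thaliana carried moderate DNA methylation. A window was taken when its methylation level in Col-wt was at least 0.05 and under 0.2, as a fraction of 1, and when at least 10 cytosines stood behind the level in each of the 9 lines. This gave 1578 windows of the 19440 in the interval and of the 43887 in the whole table. The windows start every 50 bp and overlap, and the 1578 formed 339 runs (windows no more than 100 bp apart) that covered 122.25 kb. A further 193 windows of the interval had a moderate Col-wt level but too few cytosines in at least 1 line. Because the Col-wt level chose the windows, every difference from Col-wt below is a description and carries no test.

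Bisulfite sequencing of aerial rosette tissue, harvested 21 to 22 days after sowing, covered 4 epiHybrids (92, 150, 193 and 232), the 4 epiRILs after which they are named, and the wild type Col-wt, with 2 libraries for each line. EpiRILs, or epigenetic recombinant inbred lines, share almost all of their DNA sequence and differ in inherited methylation. In the population they are known from, the founder with reduced methylation was mutant for DDM1, and the inbred lines themselves carry functional DDM1. Each epiRIL is 1 inbred line, and the epiHybrids are known from the published study as first-generation crosses with Col-wt, which the labels do not state. The authors combined the libraries of a line into 1 level per window, so no level of a line has a replicate error. Rosettes mix many cell types, and a lower level in a bulk sample cannot be told apart from fewer cells that carry the mark.

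Plant genomes carry DNA methylation of different kinds. Transposons and related repeats are usually methylated densely in the CG, CHG and CHH contexts, and this methylation depends strongly on DDM1, a chromatin remodeller. Many moderately expressed protein-coding genes carry methylation in CG sites of the transcribed region, away from the gene's ends. This gene-body methylation is copied at each replication by the CG methyltransferase MET1 and is known to depend less on DDM1. The deposited levels pool the contexts, so a gene body with fully methylated CG sites still has a low level, and CG methylation cannot be separated from the other contexts.

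The annotation placed the windows largely where gene-body methylation is found. Of the 1578 windows, 1396 (88.5%) had their centre in a protein-coding gene, against 69.1% of all 15549 windows of the interval with enough cytosines. By contrast, 15.1% of the 769 strongly methylated windows of the interval (Col-wt level of 0.2 or more, same cytosine limit) lay in protein-coding genes, 35.0% in pseudogenes and 41.9% in no annotated gene. Of the moderate windows, 137 lay in no gene, 30 in pseudogenes and 15 in other genes such as non-coding RNA genes. Within protein-coding genes, 87.6% of the moderate windows lay more than 500 bp from both ends of the gene, against 62.2% of all windows in such genes. The median distance to the nearer end was 1219 bp for the moderate windows and 673.5 bp for all windows in such genes. Gene strand and exons were not used here.

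Depth was known only as cytosines per window. The median number of cytosines in the moderate windows was 39 to 40 in each line, and the median over windows of the lowest count among the 9 lines was 36. It was 37 in protein-coding genes but 19 where no gene was annotated. Col-wt had the most windows of the interval with no cytosine at all, 1356, against 627 to 1003 in the other lines. In 31380 weakly methylated windows of the table (mean under 0.02 over the lines) Col-wt read 0.00796, and the other lines 0.00465 to 0.00568.

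The first comparison asked whether moderate methylation was kept where strong methylation was lost. It was kept to a larger share in epiRILs 150, 193 and 232, though not in full. The mean level of the moderate windows was 0.0944, 0.0740, 0.0772 and 0.0767 in epiRILs 92, 150, 193 and 232, against 0.103 in Col-wt. These levels were 91.6, 71.8, 74.9 and 74.5% of the Col-wt level, on average 78.2 ± 9.02% (SD, n = 4 lines). In the strongly methylated windows, whose mean Col-wt level was 0.363, the same epiRILs held 99.7, 36.8, 37.5 and 33.2%. Thus epiRILs 150, 193 and 232 held 71.8 to 74.9% of moderate and 33.2 to 37.5% of strong methylation. EpiRIL 92 had lost almost no strong methylation and read slightly lower in the moderate windows.

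The levels can also be set against epiRIL 92, in the same windows chosen on Col-wt. Relative to epiRIL 92, epiRILs 150, 193 and 232 stood at 78.5, 81.8 and 81.3% in the moderate windows and at 36.9, 37.6 and 33.3% in the strong ones. With 1 level per line, this difference between lines has no replicate check.

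**Figure D1:**
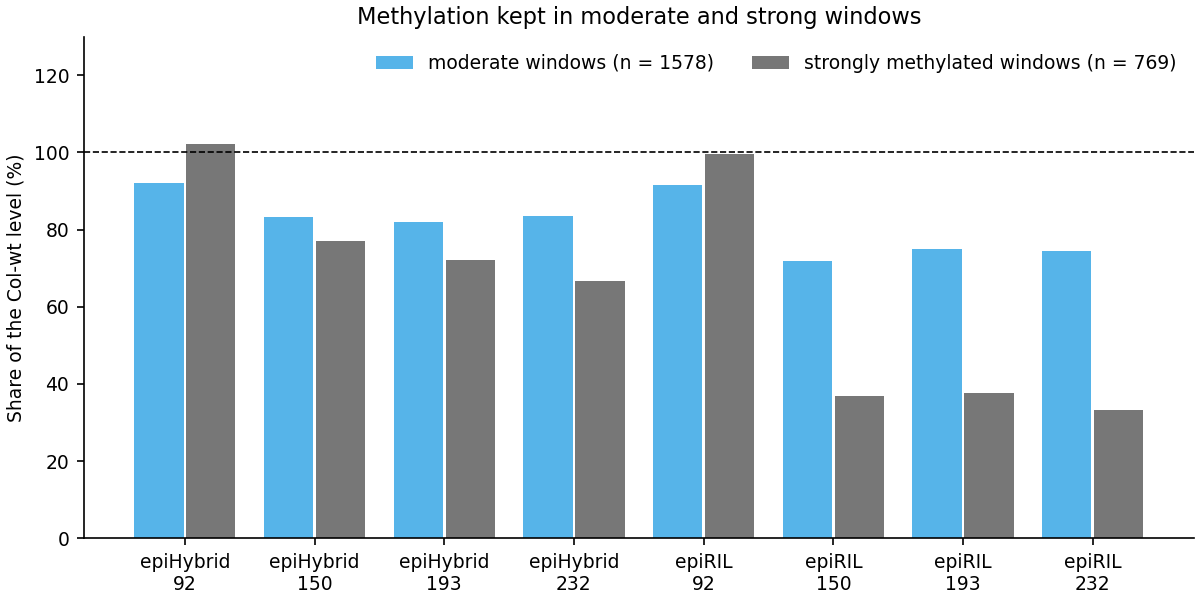
Share of the Col-wt methylation level (%, sum over windows) in moderate windows (blue) and strongly methylated windows (grey) for each epiHybrid and epiRIL; the dashed line is the Col-wt level. In epiRILs 150, 193 and 232 the blue bars stand at 71.8 to 74.9% and the grey bars at 33.2 to 37.5%, whereas both bars of epiRIL 92 lie above 90%.

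The epiHybrids lay closer to Col-wt. In the moderate windows epiHybrids 92, 150, 193 and 232 read 0.0949, 0.0859, 0.0843 and 0.0860, or 92.1, 83.4, 81.8 and 83.4% of the Col-wt level. The epiHybrid level exceeded that of its epiRIL by 0.000534, 0.0119, 0.00717 and 0.00924 in lines 92, 150, 193 and 232. Averaged over lines this came to 0.00720 ± 0.00484 (SD, n = 4), with every line above 0. The exact sign-flip permutation p over lines (two-sided) was 0.125, the smallest value that 4 lines allow, so 0.05 was out of reach. Choosing windows methylated in Col-wt, the other parent in the published study, itself favours an epiHybrid above its epiRIL. The test cannot separate that choice from a difference between the kinds of line. In windows picked by their Col-wt neighbours, as described below, the difference was 0.00321 (exact permutation p = 0.25), and line 92 was the other way round, with 97.7% of Col-wt in epiHybrid 92 and 101% in epiRIL 92. Line 92 was also the other way round with non-overlapping windows, at 92.4% in epiHybrid 92 and 92.7% in epiRIL 92 (exact permutation p = 0.25). The mean of Col-wt and the epiRIL would be 95.8, 85.9, 87.4 and 87.2% of Col-wt in the 4 lines, and each epiHybrid read a few percent below it. Since the Col-wt values were selected, that shortfall is a description only.

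In epiRILs 150, 193 and 232 the kept share differed more between protein-coding genes and each other class than between moderate and strong windows of a class. This was not so in epiRIL 92. Between the classes outside protein-coding genes it did not hold throughout. In protein-coding genes epiRILs 92, 150, 193 and 232 kept 92.5, 76.1, 78.9 and 80.0% in the moderate windows. The 116 strong windows in protein-coding genes held nearly the same shares, 95.9, 76.4, 84.7 and 80.2%. Where no gene was annotated, the moderate windows held 85.8, 43.5, 52.2 and 35.9%, against 98.2, 44.6, 43.6 and 39.7% in the 322 strong windows there. In pseudogenes, many of which are remnants of transposons in plants, the 30 moderate windows held 80.9, 29.8, 26.7 and 25.9%, and the 269 strong windows 103, 11.5, 12.1 and 7.14%. In other genes the 15 moderate windows held 85.4, 42.3, 36.2 and 38.5%, and the 62 strong windows 99.3, 56.2, 56.7 and 53.7%. So moderate windows outside protein-coding genes lost much of their methylation in 3 epiRILs, and strong windows inside such genes kept most of it. The classes were examined after values had been seen and were not tested. They also differ in cytosine number, as given above, and its part in the result was not tested. Restricted to windows with at least 20 cytosines in every line, the shares of epiRILs 150, 193 and 232 were 77.7, 80.6 and 82.9% in protein-coding genes and 43.9, 41.3 and 35.0% where no gene was annotated.

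The epiHybrids did not share 1 order of the classes. EpiHybrids 92, 150, 193 and 232 held 93.2, 86.3, 84.4 and 86.3% in protein-coding genes. They held 80.9, 58.7, 64.0 and 60.6% where no gene was annotated, and 94.7, 70.1, 60.1 and 69.8% in pseudogenes. Protein-coding windows stood highest in epiHybrids 150, 193 and 232, and pseudogene windows in epiHybrid 92.

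**Figure D2:**
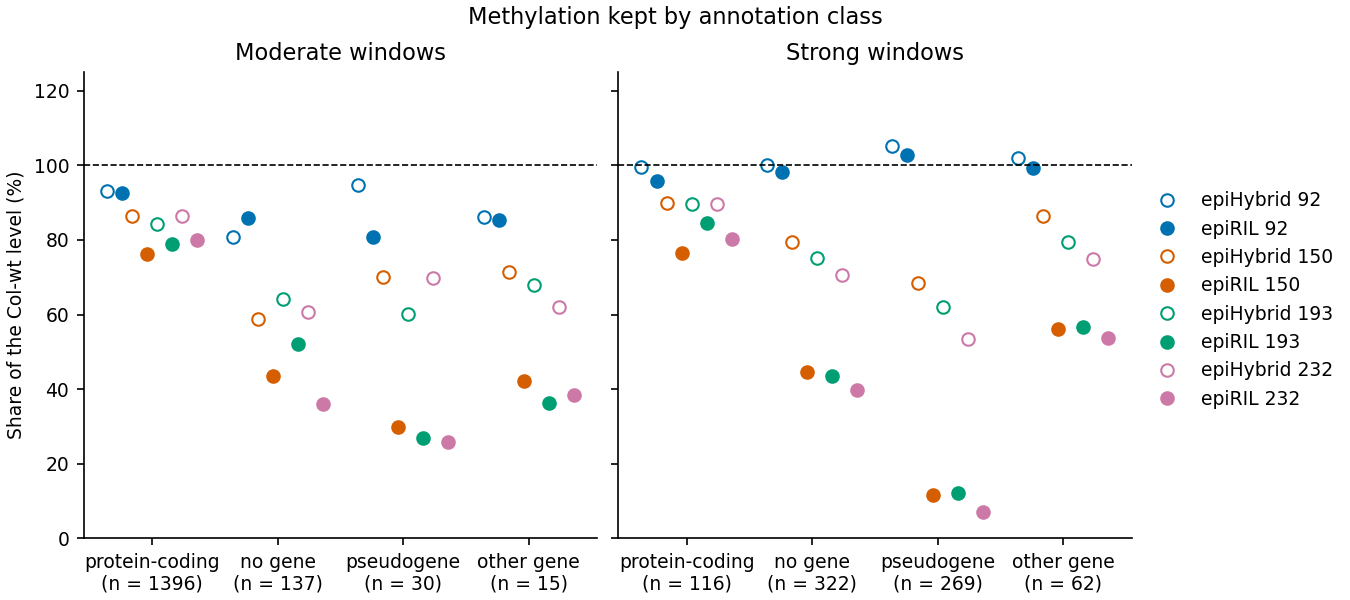
Share of the Col-wt level (%) by annotation class for moderate windows (left) and strong windows (right), with epiHybrids as open and epiRILs as filled circles in 1 colour per line; n is the number of windows. Protein-coding windows of epiRILs 150, 193 and 232 lie between 76.1 and 84.7% in both panels, and pseudogene windows of these lines between 7.14 and 29.8%.

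Split by Col-wt level, the protein-coding windows showed little trend up to 0.3. From 0.05 to 0.1 in Col-wt, 751 windows held 74.7, 76.3 and 77.4% in epiRILs 150, 193 and 232. From 0.1 to 0.15, 453 windows held 77.9, 82.4 and 82.6%, and from 0.15 to 0.2, 192 windows held 75.6, 77.3 and 80.1%. The 93 protein-coding windows from 0.2 to 0.3, which are above the limit, held 79.8, 85.2 and 82.9%. The 23 protein-coding windows from 0.3 up held less, 68.6, 83.4 and 73.8%. EpiRIL 92 held 99.8% from 0.2 to 0.3 and 86.6% from 0.3 up. Where no gene was annotated, the share was higher at higher Col-wt levels within the moderate range. From 0.05 to 0.1, 72 such windows held 58.4, 31.6, 34.1 and 27.6% in epiRILs 92, 150, 193 and 232. From 0.1 to 0.15, 39 held 98.5, 43.1, 56.6 and 39.8%, and from 0.15 to 0.2, 26 held 103, 57.5, 67.7 and 41.0%. Above the limit, 94 such windows from 0.2 to 0.3 held 108, 50.1, 53.3 and 42.9%. The 228 from 0.3 up held 95.8, 43.2, 41.2 and 38.9%, so the rise did not go on above the limit in epiRILs 150 and 193. At the upper limit itself, 63 windows from 0.18 up to 0.2 held 96.6, 79.6, 78.5 and 77.2% in epiRILs 92, 150, 193 and 232, and 59 windows from 0.2 up to 0.22 held 106, 75.4, 83.6 and 78.0%. At the lower limit, 232 windows from 0.05 up to 0.06 held 79.3, 66.98, 69.0 and 70.0%, and 269 windows from 0.04 up to 0.05 held 85.1, 68.3, 73.1 and 73.5%. Both pairs at the limits are over windows of all classes. EpiHybrids 92, 150, 193 and 232 held 95.3, 85.7, 85.4 and 86.2% from 0.18 up to 0.2. From 0.2 up to 0.22 they held 105, 95.0, 96.9 and 96.2%. So the epiHybrids and epiRILs 92 and 193 read higher just above the upper limit, and epiRIL 232 slightly higher. Only epiRIL 150 read lower there. These differences were not tested.

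Windows were also picked without their own Col-wt level. When they were taken by the mean Col-wt level of their neighbours on both sides, with which they share no base, 1752 windows of the interval qualified. Their own mean Col-wt level was lower, 0.0655 (0.0618 in protein-coding genes), against 0.103 in the moderate windows above. EpiRILs 92, 150, 193 and 232 then held 101, 78.3, 83.3 and 82.2% of the Col-wt level, and strong windows picked in the same way held 103, 26.9, 27.6 and 25.1%. In protein-coding genes alone the shares were 99.98, 82.8, 87.0 and 88.2%. The shortfall of epiRIL 92 was absent under this choice, and those of the other 3 epiRILs were smaller but remained.

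Single windows were spread over the whole range from lost to kept. A window was called kept at 75% or more of the Col-wt level and lost under 25%. Kept windows were 73.0, 53.2, 57.1 and 55.9% of the moderate windows in epiRILs 92, 150, 193 and 232. Over all 6060 windows of the 3 intervals at 0.05 or more in Col-wt, the same rule called 73.7, 56.9, 56.8 and 50.9%. Lost windows were 16.7, 25.03, 24.5 and 25.9%, where the rule called 9.31, 25.6, 27.3 and 33.3% of all such windows. Except for the lost share of epiRILs 92 and 232, the shares of single windows were near this background, which includes intervals where these lines had kept strong methylation. Between the limits lay 10.3, 21.8, 18.4 and 18.3% of the moderate windows in epiRILs 92, 150, 193 and 232, and 14.3, 24.8, 26.2 and 26.6% in their epiHybrids. In the epiHybrids 76.7, 65.7, 64.6 and 64.7% were kept (84.1, 71.6, 67 and 60.9% of all such windows) and 8.94, 9.51, 9.25 and 8.75% were lost (5.03, 5.48, 5.38 and 6.55% of all such windows). The counts of lost windows depended on cytosine number: with at least 20 cytosines in every line, 1269 windows stayed, of which 69 to 73 were lost in an epiHybrid, against 138 to 150 with at least 10.

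The spread among protein-coding windows was wide. The median window of epiRILs 92, 150, 193 and 232 stood at 97.4, 84.4, 88.9 and 88.8% of Col-wt, whereas the lower quartile of epiRILs 150, 193 and 232 was 45.7, 48.5 and 48.7%. Of the 1396 protein-coding windows, 177, 277, 270 and 277 were lost in epiRILs 92, 150, 193 and 232, and 79 to 84 in each epiHybrid. Of these lost windows, most stood under 10% of Col-wt: 159, 208, 216 and 231 windows in epiRILs 92, 150, 193 and 232. Where no gene was annotated the median window of epiRILs 92, 150, 193 and 232 stood at 16.8, 10.2, 14.2 and 8.70%.

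**Figure D3:**
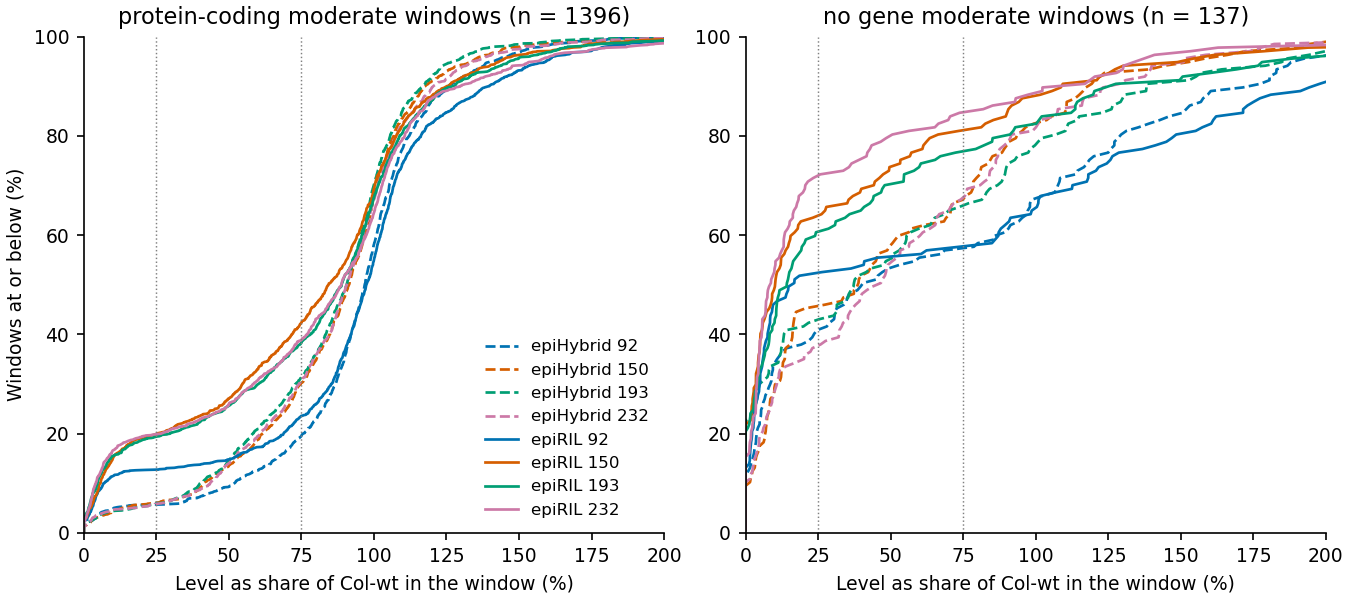
Cumulative share of moderate windows (%, vertical axis) by level relative to Col-wt in the same window (%, horizontal axis, shown up to 200%), in protein-coding genes (left) and where no gene is annotated (right); solid lines are epiRILs, dashed lines epiHybrids, dotted lines the limits of 25 and 75%. On the left epiRILs 150, 193 and 232 reach 19.3 to 19.8% of windows at the lower limit and the epiHybrids 5.66 to 6.02%, while on the right the epiRILs reach 51.8 to 71.5%.

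Windows kept in all 4 epiRILs numbered 650, or 41.2% of the moderate windows (31.6% of all windows at 0.05 or more), and 633 of them lay in protein-coding genes. They read 0.117, 0.113, 0.114 and 0.117 in epiRILs 92, 150, 193 and 232, against 0.104 in Col-wt. The rule for kept windows removed low epiRIL levels and set no upper limit, which by itself raises the epiRIL means relative to Col-wt. The higher epiRIL levels are therefore no evidence of gained methylation. Of the strong windows of the interval, 17.4% were kept in all 4 epiRILs, but 44.8% of those in protein-coding genes, against 45.3% of the moderate protein-coding windows.

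The pattern typical of the strong windows of this interval, lost in epiRILs 150, 193 and 232 and kept in epiRIL 92, was found in 356 strong windows (46.3%). It was found in 79 moderate windows (5.01%; 7.49% of all windows at 0.05 or more). In these 79, epiHybrids 92, 150, 193 and 232 read 0.105, 0.0548, 0.0510 and 0.0533, the epiRILs 0.107, 0.00477, 0.00538 and 0.00427, and Col-wt 0.0962. The epiHybrids of the 3 depleted lines lay near the middle between their epiRIL and Col-wt. Because epiRIL 92 had to be kept, with no upper limit, its level above Col-wt is likewise no evidence of a gain.

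A different group had few counterparts among strong windows. In 209 moderate windows (13.2%; 6.19% of all windows at 0.05 or more) the level was lost in all 4 epiRILs, epiRIL 92 included, compared with 6 strong windows (0.780%). Of these 209, 129 lay in protein-coding genes and 64 in no gene. In 99 of them (6.27% of the moderate windows; 3.1% of all windows at 0.05 or more) all 4 epiHybrids were also lost, so that Col-wt alone read a moderate level, 0.0887, while the other lines read 0.00292 to 0.00472. The median number of cytosines in Col-wt was 28 in these 99 windows, and the median of the lowest count over lines 20. In 68 others of the 209, no epiHybrid was lost: epiHybrids read 0.0405 to 0.0467, epiRILs 0.00365 to 0.00505 and Col-wt 0.0792. Col-wt read above all 8 other lines in 529 moderate windows (33.5%; 22.4% of all windows at 0.05 or more) and below all of them in 128 (8.11%; 6.95%). The higher Col-wt reading in weakly methylated windows, given above, goes the same way, and its part in these counts was not tested.

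Distance from strongly methylated tracts was compared next. A tract was a run of at least 5 windows at 0.2 or more in Col-wt, and 32 tracts lay in the interval. Only 94 moderate windows lay within 500 bp of a tract, against 1484 farther away. The 1368 protein-coding windows far from tracts read 0.0942, 0.0785, 0.0810 and 0.0822 in epiRILs 92, 150, 193 and 232 and 0.102 in Col-wt. The 94 windows near tracts read 0.136, 0.0756, 0.0736 and 0.0629 in the epiRILs and 0.123 in Col-wt. Class and distance change together in this comparison, since 28 of the 94 windows near tracts lay in protein-coding genes and 49 in no gene. The difference, far protein-coding minus near tracts, was -0.0414 in epiRIL 92 and 0.00289, 0.00735 and 0.0193 in epiRILs 150, 193 and 232, against -0.0211 in Col-wt. Its mean was -0.00295 ± 0.0265 (SD, n = 4 lines; exact two-sided sign-flip permutation p = 1), and without epiRIL 92 it was 0.00986 (p = 0.25, the smallest value that 3 lines allow). The test set this difference against 0, whereas Col-wt itself stood at -0.0211. It therefore does not decide whether methylation was better kept far from tracts. Near tracts epiRIL 92 held 110% of the Col-wt level, and epiRILs 150, 193 and 232 held 61.3, 59.8 and 51.0%. Within a class the shares went opposite ways. In protein-coding genes these 3 epiRILs held 44.8, 60.5 and 57.4% near tracts and 76.8, 79.3 and 80.5% far from them. Where no gene was annotated they held 69.3, 60.5 and 44.9% in the 49 windows near tracts and 24.8, 46.1 and 29.3% in the 88 far from them.

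Along the interval the kept share varied less in moderate protein-coding windows than in strong windows, except in the last bin. In bins of 100 kb, the strong windows of epiRIL 150 held 15.5% in the first bin, 93.8% in the bin from 400 to 500 kb and 14.96% in the bin from 800 to 900 kb. Its moderate protein-coding windows held 74.3, 77.7 and 75.4% in these bins. In epiRIL 193 the first bin gave 73.4% for the moderate windows and 19.3% for the strong ones, and the bin from 800 to 900 kb 78.9 and 15.8%. In epiRIL 232 these pairs were 75.7 and 21.6% in the first bin, and 87.9 and 16.2% from 800 to 900 kb. In the middle of the interval the strong windows held as much or more in some bins. From 300 to 400 kb epiRIL 193 held 80.5% in moderate protein-coding and 85.4% in strong windows, and from 700 to 800 kb 81.6 and 90.7%. From 600 to 700 kb epiRIL 232 held 77.5 and 80.7%. Over the first 9 bins the moderate protein-coding windows held 73.5 to 81.4% in epiRIL 150, 73.4 to 89.1% in epiRIL 193 and 70.0 to 89.4% in epiRIL 232. The last bin differed: its 38 moderate protein-coding windows held 68.0, 44.3, 37.3 and 54.9% in epiRILs 92, 150, 193 and 232. The strong windows numbered 14 in each of the bins from 600 to 800 kb, so their shares there rest on little sequence.

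**Figure D4:**
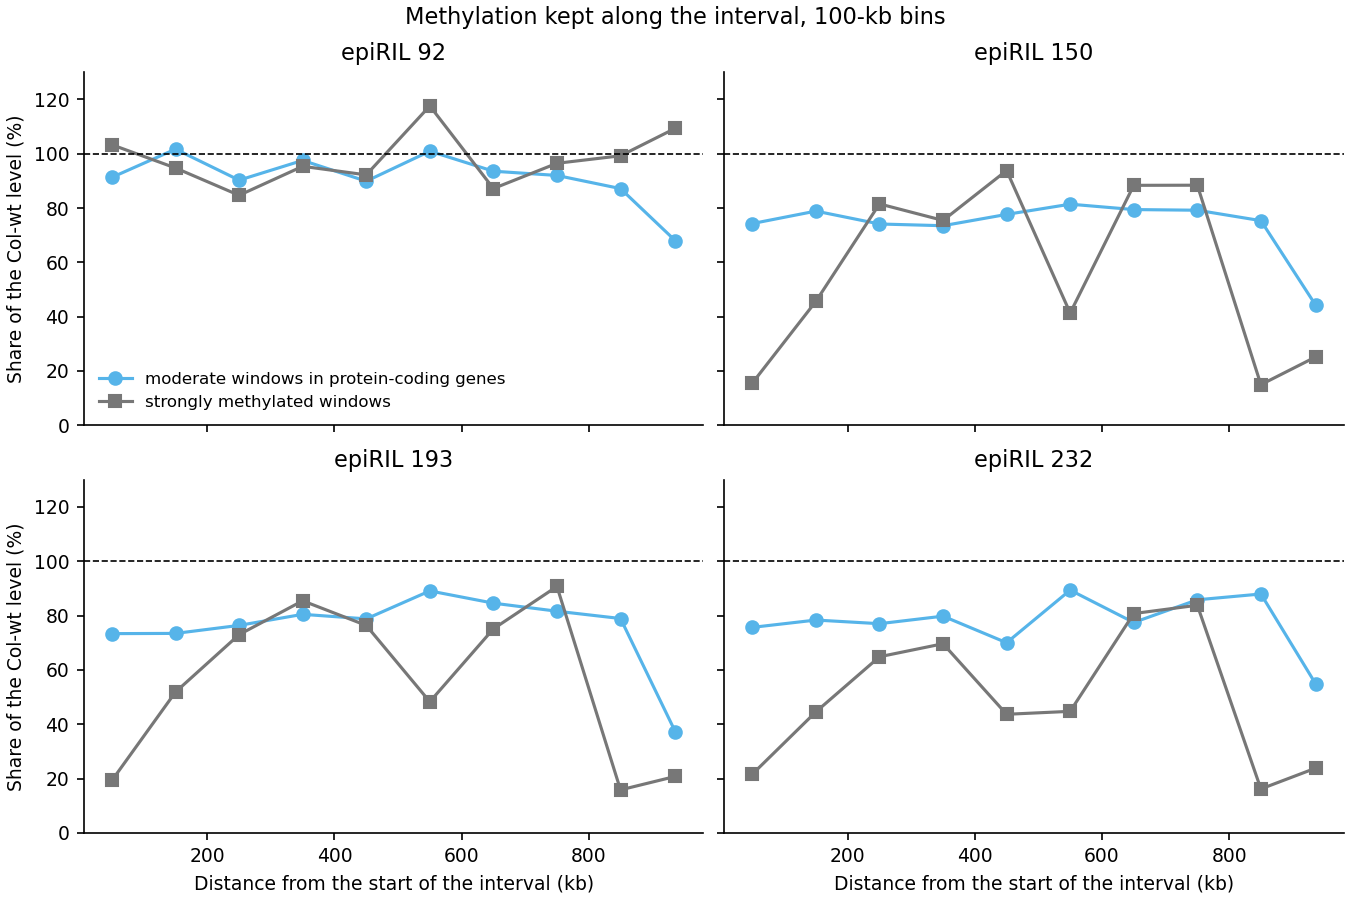
Share of the Col-wt level (%) in bins of 100 kb along the interval (horizontal axis, distance from its start in kb) for moderate windows in protein-coding genes (blue circles) and strongly methylated windows (grey squares), 1 panel per epiRIL. In epiRILs 150, 193 and 232 the grey line falls to 14.96 to 21.6% at both the first bin and the bin from 800 to 900 kb, where the blue line stays between 73.4 and 87.9%.

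By gene, 133 of the 272 protein-coding genes of the interval held at least 1 moderate window, and 85 held at least 5. These 85 had a median length of 3215 bp, against 1623 bp for the other protein-coding genes, so a count of windows favours long genes. Of the 85, the mean level of the moderate windows was kept (75% or more) in 72, 43, 47 and 52 genes in epiRILs 92, 150, 193 and 232. Of 214 protein-coding genes with at least 5 windows at 0.05 or more in the 3 intervals, 81.3, 60.3, 65 and 65.9% were kept. Lost genes (under 25%) numbered 2, 3, 4 and 3 in these epiRILs (2.34, 6.07, 5.61 and 6.54% of the 214) and 1 in each epiHybrid (1.4, 1.4, 1.4 and 1.87% of the 214). These shares of genes were near the background or, for kept genes, somewhat below it in the epiRILs 150, 193 and 232. In the epiHybrids, 76, 69, 62 and 65 genes were kept (90.2, 85, 76.2 and 79.9% of the 214). Kept in all 4 epiRILs were 40 of the 85 genes, against 94 of the 214 (43.9%). The median gene held 94.4, 75.5, 79.7 and 83.4% in epiRILs 92, 150, 193 and 232, and 94.8, 87.9, 85.5 and 87.8% in their epiHybrids.

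The genes with the most moderate windows kept most of their level. EIF4G, which encodes the scaffold subunit of the cap-binding translation initiation complex, had 59 moderate windows between 22262901 and 22268500. They read 0.108, 0.106, 0.106 and 0.106 in epiHybrids 92, 150, 193 and 232, then 0.113, 0.106, 0.101 and 0.102 in the epiRILs of the same numbers, and 0.109 in Col-wt. Among its windows the Col-wt level had an SD of 0.0415, which is a spread along the gene and no error for the mean of a line. AT3G62360 (57 windows) read 0.0864, 0.0789, 0.0759 and 0.0771 in epiRILs 92, 150, 193 and 232, against 0.0938 in Col-wt. AT3G61690 (54 windows) read 0.0951, 0.0821, 0.0943 and 0.0952 in the epiRILs, against 0.0987 in Col-wt, with epiRIL 150 the low one. AT3G62010, AT3G61480 and AT3G60860 had 51, 44 and 30 windows and held on average 92.3, 92.8 and 94.3% over the 4 epiRILs. AT3G60961 overlaps the pseudogene AT3G60965, and their 42 shared windows held 92.5 ± 9.16% (SD, n = 4 epiRILs).

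Others among the genes with most windows kept less. ARABIDILLO-2, which encodes an armadillo-repeat F-box protein of a pair known for a role in lateral root formation, had 40 windows. They read 0.0779, 0.0651, 0.0682 and 0.0661 in epiRILs 92, 150, 193 and 232, against 0.0928 in Col-wt. TTN1 encodes tubulin folding cofactor D, which is needed for microtubule assembly in the embryo. Its 29 windows read 0.0871, 0.0721, 0.0749 and 0.0760 in epiHybrids 92, 150, 193 and 232, then 0.0828, 0.0539, 0.0601 and 0.0569 in the epiRILs, and 0.0913 in Col-wt. EpiRIL 92 stayed near Col-wt in TTN1, the other 3 epiRILs held 59.0 to 65.8%, and their epiHybrids lay between. AT3G61420 (26 windows) held 69.0 ± 10.2% and GDAP1 (26 windows), a golgin of the Golgi apparatus, 67.9 ± 9.12% (SD, n = 4 epiRILs each). The 12 genes with most windows together held 29.0% of all moderate windows.

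**Figure D5:**
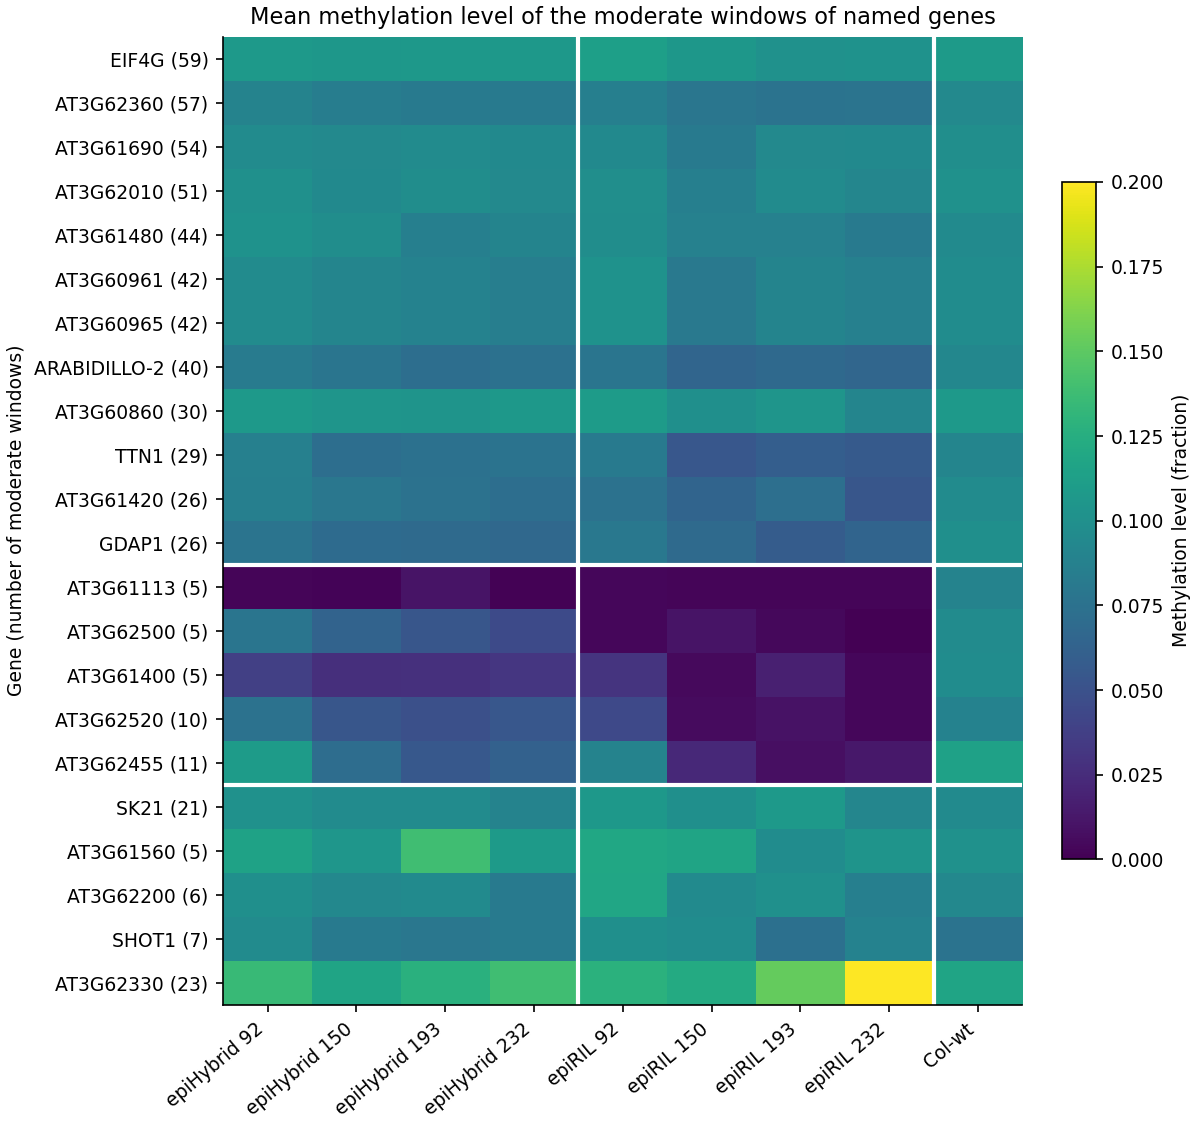
Mean methylation level (colour, fraction) of the moderate windows of each named gene (rows, number of windows in brackets) in the 4 epiHybrids, the 4 epiRILs and Col-wt (columns). The upper block holds the 12 genes with most windows, the middle block the 5 with the lowest and the lower block the 5 with the highest mean share over the epiRILs; AT3G62330 in epiRIL 232 (0.1997) is the brightest cell, and AT3G61113 is dark in all lines but Col-wt.

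In 17 of the 85 protein-coding genes epiRIL 92 had kept the level and epiRILs 150, 193 and 232 were all under 75%, as in TTN1. Among the 214 genes of the 3 intervals, 17 (7.94%) showed this, but these 214 include the interval's own genes. Lines with losses differed between intervals: in the chromosome 4 interval epiRILs 150 and 232 held 91.8 and 100.04% in moderate protein-coding windows. The higher share among the 85 is thus partly set by this background and was not tested. A pair of the 17 among the 85, chosen after their values were seen, are HA7, which encodes a plasma membrane proton pump, and ABCC14, an ABC transporter. HA7 (18 windows) read 0.0869, 0.0641, 0.0581 and 0.0679 in epiHybrids 92, 150, 193 and 232, then 0.0901, 0.0611, 0.0487 and 0.0406 in the epiRILs, and 0.0922 in Col-wt. ABCC14 (15 windows) read 0.0665, 0.0319, 0.0279 and 0.0507 in epiRILs 92, 150, 193 and 232, against 0.0880 in Col-wt. In both genes the moderate level was partly lost inside a protein-coding gene, without any tract within 500 bp.

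The 5 genes with the lowest shares, among those with at least 5 moderate windows, were the protein-coding genes AT3G61113, AT3G62500 and AT3G61400 and the pseudogenes AT3G62520 and AT3G62455. They do not share 1 pattern. AT3G61113, annotated as the ubiquitin-related modifier URM12, had 5 windows at 22615201 to 22615500, all within 500 bp of a tract. They read 0.00258, 0.00202, 0.0106 and 0.00152 in epiHybrids 92, 150, 193 and 232, then 0.00351, 0.00298, 0.00253 and 0.00244 in the epiRILs, and 0.0896 in Col-wt. Col-wt alone was methylated there.

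AT3G62500 had 5 windows at 23121751 to 23122250. They read 0.0780, 0.0635, 0.0533 and 0.0448 in epiHybrids 92, 150, 193 and 232, then 0.00341, 0.0104, 0.00448 and 0.000620 in the epiRILs, and 0.0964 in Col-wt. All 4 epiRILs had lost the level, and the epiHybrids held 80.9, 65.9, 55.3 and 46.5%. The 11 windows of AT3G62455, at 23101551 to 23103700, read 0.110, 0.0713, 0.0554 and 0.0625 in the epiHybrids, then 0.0895, 0.0228, 0.00831 and 0.0129 in the epiRILs, and 0.114 in Col-wt. Here epiRIL 92 held 78.2%, but the median lowest count was 18 cytosines. With at least 20 cytosines in every line, the mean share over the 4 epiRILs was 2.72% in AT3G62455, against 29.1% with at least 10. In AT3G62520 (10 windows) epiRIL 92 held 49.6% and the other 3 epiRILs 3.94 to 10.8%, on a median lowest count of 14 cytosines. The 5 windows of AT3G61400 held 31.0, 5.58, 18.04 and 3.47% in epiRILs 92, 150, 193 and 232, and 27.6 to 39.1% in the epiHybrids. With windows picked by their Col-wt neighbours, the mean share over the epiRILs was 52.0% in AT3G62500, 42.6% in AT3G62520 and 184% in AT3G61400, against 4.91, 17.7 and 14.5% above, so the low shares of these genes rest on which windows were taken.

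The 5 genes with the highest shares were SK21, AT3G61560, AT3G62200, SHOT1 and AT3G62330. In AT3G62330, 23 windows at 23063051 to 23064800 read 0.135, 0.117, 0.127 and 0.139 in epiHybrids 92, 150, 193 and 232, then 0.128, 0.122, 0.153 and 0.1997 in the epiRILs, and 0.117 in Col-wt. EpiRIL 232 was the highest, at 171% of Col-wt and above it in 19 of 23 windows, and epiRIL 193 was above in 18. It was the 1 protein-coding gene of the 85 with all 4 epiRILs above Col-wt. SHOT1 encodes a mitochondrial protein whose mutation suppresses a heat-sensitive phenotype. Its 7 windows read 0.0994, 0.0975, 0.0738 and 0.0885 in epiRILs 92, 150, 193 and 232, against 0.0766 in Col-wt. SK21, a SKP1-like gene of the family that supplies subunits of SCF ubiquitin ligases, had 21 windows that read 0.106, 0.0994, 0.107 and 0.0914 in the epiRILs, against 0.0954 in Col-wt. AT3G61560, whose 5 windows also lie in GDAP1, and AT3G62200 (6 windows) held 107 and 108% on average over the epiRILs.

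Outside annotated genes, the 5 longest runs of moderate windows behaved in different ways. The run at 22747551 to 22748250, next to the photosystem I antenna gene LHCA2, had 8 windows, on a median lowest count of 13 cytosines. It read 0.274, 0.137, 0.159 and 0.184 in epiHybrids 92, 150, 193 and 232, then 0.377, 0.0704, 0.269 and 0.1496 in the epiRILs, and 0.133 in Col-wt. The 3 runs at 22817101 to 22817550, 22894051 to 22894400 and 22976851 to 22977200 read 0.0817 to 0.115 in Col-wt and at most 0.00645 in any epiRIL. The epiHybrids there read at most 0.0247, so Col-wt stood alone in these runs. The run at 23067651 to 23067950, 50 bp from a tract near WRKY68, read 0.175, 0.102, 0.1003 and 0.0307 in epiRILs 92, 150, 193 and 232, against 0.147 in Col-wt.

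Levels of single windows were more alike among epiRILs 150, 193 and 232 than between these and epiRIL 92. Over the 1396 protein-coding windows, as a description across windows that are neighbours and share their cytosines, Pearson's r was 0.860 between epiRILs 150 and 193, 0.847 between epiRILs 193 and 232 and 0.80 between epiRILs 150 and 232. It was 0.7199, 0.756 and 0.737 between epiRIL 92 and epiRILs 150, 193 and 232. Over all 1578 windows, r between an epiHybrid and its epiRIL was 0.899, 0.828, 0.842 and 0.846 in lines 92, 150, 193 and 232. It was 0.859 to 0.872 among epiHybrids 150, 193 and 232, and 0.828 between epiHybrid 193 and epiRIL 150.

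In the other intervals, the lines that had lost strong methylation stood lowest in moderate protein-coding windows chosen by the same rule, but not in step with the depth of that loss. In the first chromosome 3 interval, epiRILs 92, 150, 193 and 232 held 96.7, 82.9, 89.6 and 83.7% in 979 moderate protein-coding windows, and 103, 71.98, 81.4 and 38.7% in strong windows. EpiRIL 232 was thus far below epiRIL 150 in strong windows but not in moderate protein-coding ones. Over moderate windows of all classes there, epiRIL 232 held 74.9% and epiRIL 150 79.8%. In the chromosome 4 interval they held 87.5, 91.8, 74.9 and 100.04% in 756 moderate protein-coding windows, and 64.1, 108, 53.0 and 101% in strong windows. In each of the 3 intervals the moderate protein-coding windows of a line with depleted strong windows held 74.9% or more. The intervals were not compared by a test.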

How the data were processed

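Per the submitters' processing notes, reads were handled with cutadapt, BS-Seeker2 and Bowtie2 on TAIR10, with no versions given. The authors deposited 1 table with a methylation level per line as a fraction from 0 to 1, pooled over cytosine contexts and over the 2 libraries of a line, and the number of cytosines behind it (at most 72). The sources used here do not give how libraries were combined. Read depth is unknown, so no intervals or detection limits are given. The 12 deposited columns of mid-parent values, differences and log ratios were not used.

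Levels were averaged per line over windows with Python 3.11.15 and pandas 2.3.3, and a kept share is the sum of a line's levels over the sum of the Col-wt levels. Tests over the 4 lines were exact two-sided sign-flip permutation tests. The routines were tested on simulated data. Genes came from RefSeq (TAIR10.1) by the window's centre. Shifting the annotation by 250 bp either way lowered its correlation with cytosine number to 0.259 and 0.278, against 0.290 unshifted. Windows, limits and lists were chosen with earlier results of these data known. The named genes are the 12 with most moderate windows, the 5 lowest and 5 highest in mean share over the epiRILs among genes with at least 5, and the 5 longest runs outside genes. HA7 and ABCC14 were added after seeing values. Sequences were planned but not used here.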

Additional observations from a re-analysis of the deposited data

Results flagged for a closer look

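Some values of 1 line stood far from the other 3 lines of its kind, by a gap relative to the range (Dixon's limit for 4 values). Of 52 groups of 4 lines screened, 7 were past the limit, where chance flags about 1 in 20 independent groups. Line 92 accounts for 5 of the 7. The groups share lines and windows, so these counts are no test. The pseudogene windows are among all moderate windows, and those of AT3G62520 are among the pseudogene windows. Summed over all moderate windows, the share of the Col-wt level was 92.1% in epiHybrid 92, against 81.8 to 83.4% in the other epiHybrids, and epiRIL 92 held 91.6%, against 71.8 to 74.9% in the other epiRILs. In moderate windows over pseudogenes epiRIL 92 held 80.9%, against 25.9 to 29.8%, and in the pseudogene AT3G62520 it held 49.6%, against 3.94 to 10.8%. In SHOT1 epiHybrid 92 held 126%, against 104 to 106%. In AT3G61690 epiRIL 150 held 83.3%, against 95.5 to 96.5%. In AT3G61113 epiHybrid 193 held 11.8%, against 1.69 to 2.88%.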

How the results depend on the processing

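The shares of the Col-wt level in moderate windows moved by less than the spread between lines of a kind with a cytosine minimum of 5 or 20, with non-overlapping windows, with narrower Col-wt ranges and with the background of each line subtracted. Picking windows by their neighbours raised all 8 shares, 5 of them by more than that spread. These 5 rose to 97.7, 89.4, 87.9 and 89.4% in epiHybrids 92, 150, 193 and 232 and to 101% in epiRIL 92. EpiRILs 150, 193 and 232 rose as well, from 71.8, 74.9 and 74.5% to 78.3, 83.3 and 82.2%. Their rises stayed under the SD of 9.02 between the epiRILs, a spread that includes the higher epiRIL 92. A minimum of 20 cytosines left 1269 windows. Of these, 70, 72, 73 and 69 were lost in epiHybrids 92, 150, 193 and 232, against 141, 150, 146 and 138 with a minimum of 10. In epiRILs 92, 150, 193 and 232, 160, 267, 257 and 267 were lost, against 264, 395, 386 and 408 with a minimum of 10. The difference between protein-coding windows far from tracts and windows near them, -0.00295, turned to 0.00986 without epiRIL 92, and leaving out any 1 line gave -0.0104 to 0.00986. The mean epiHybrid minus epiRIL difference stayed above 0 in every alternative, though line 92 alone did not, with 0.00565 to 0.00942 when 1 line was left out. All these alternatives still chose windows by Col-wt levels. For the named genes, 116 of 132 alternative values moved by less than the SD over the epiRILs; in AT3G61400 and AT3G62500 the mean share was 184 and 52.0% with windows picked by their neighbours, against 14.5 and 4.91%. No paired analysis was possible because the deposited columns combine the libraries of a line and carry no replicate numbers; only an epiHybrid and its epiRIL are paired, by line, in the difference given above.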
